A study of Mus musculus with 6 samples.

Results

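The genes described here are 10 genes of glutathione synthesis and thiol redox control: Cth, Cbs, Gclc, Gclm, Gss, Gsr, Txnrd1, Gpx1, Gpx4 and Chac1. They were taken by gene name from the 54532 genes of the count table. All 10 passed the filter on low counts and are among the 15938 genes tested. RNA sequencing counts were available for 6 cultures of mouse splenic CD4+ T cells grown for 72 h under Th1 conditions, which direct T cells toward interferon-gamma production. Of these, 3 held 500 nM ALX-5407, which inhibits GlyT1, a glycine transporter (ALX-5407 cultures), and 3 held vehicle, 0.1% DMSO (Th1 cultures). At this dose the study reports a falling viability and more apoptosis in treated cells. Their part in the transcript differences was not tested. The study asked how inhibition of glycine uptake bears on Th1 cells, and the comparison here asks how the transcripts of glutathione and thiol metabolism differ between the treated and untreated cultures.

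Cells of both groups came from spleens of male C57BL/6 mice aged 6 to 8 weeks, by magnetic negative selection. Both groups received antibodies to CD3 and CD28, IL-2, IL-12 and an antibody to IL-4. The labels state biological replicates, but whether each culture came from its own animal is not given in the sources used here, so the p-values measure the spread between these cultures. The labels give 72 h under Th1 conditions with ALX-5407 treatment, while the sequencing methods give 24 h of exposure to ALX-5407. The culture methods have cells collected at 72 h, and a figure legend describes treated cells cultured for 3 days. RNA was selected on poly-T beads by the labels and by removal of ribosomal RNA by the methods text. The total counts were 33432304, 32518060 and 30801753 in the Th1 cultures and 34735568, 36727788 and 34142475 in the ALX-5407 cultures. The 10 most abundant genes of each library held between 6.61% and 7.71% of its counts. Levels are given as CPM, counts scaled to library size by TMM factors, or per length as CPM per kilobase of the gene length given with the counts.

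The labelled cell type was checked against marker genes. The 10 CD4 T cell markers, led by Cd28, summed to 3740, 3740 and 3535 CPM in the Th1 cultures and to 3696, 3695 and 3626 CPM in the ALX-5407 cultures. None of them was under 1 CPM throughout. The sums of the groups were alike, but single markers moved both ways: in edgeR, Cd28, Cd5 and Thy1 were higher, Cd3d, Cd3g, Cd4 and Zap70 were lower, and Cd3e, Cd247 and Lck did not pass the test. The 7 Th1 markers, led by Ifng, summed to 1423, 1506 and 1635 CPM in the Th1 cultures and to 1154, 1114 and 1121 CPM with ALX-5407, so every treated culture was below every untreated one. In edgeR, Ifng, Stat4, Il18r1 and Hopx of that list were lower, Tbx21 was higher, and Cxcr3 and Il12rb2 did not pass the test.

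Markers of other cells were low. The 13 myeloid and dendritic markers summed to 73.7 CPM on average in Th1 cultures and 28.2 CPM with ALX-5407, nearly all of it Ly6g. The other 12 were under 1 CPM in every library, and S100a8, S100a9, Siglech and C1qa were at 0. In edgeR, 1 of the 13 was called lower and 0 were called higher. The 7 B cell markers, led by Pax5, summed to 10.7 and 14.5 CPM, and the 7 CD8 and NK cell markers, led by Cd8b1, to 16.0 and 14.4 CPM, on average in Th1 and ALX-5407 cultures. Single markers moved both ways here too. In edgeR, Ms4a1, Cd79a and Pax5 of the B cell list were higher and Fcer2a lower, and of the CD8 and NK cell list Eomes was higher and Cd8a and Klre1 lower. The 9 erythroid and platelet markers, led by Itga2b, summed to 4.18, 4.91 and 5.91 CPM in the Th1 cultures and to 9.71, 11.1 and 8.19 CPM with ALX-5407, where Pf4 and Itga2b were called higher. Among these, 7 were under 1 CPM in every library, as were 3 of the CD8 and NK cell markers. For the lists whose sums differed between the groups, their part in the results was not tested. In bulk RNA, fewer cells of a type and less RNA per cell cannot be told apart.

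Glutathione is a tripeptide of glutamate, cysteine and glycine. It is built by glutamate-cysteine ligase and then glutathione synthetase, with cysteine usually in shortest supply, and it is spent by peroxidases and restored by an NADPH-dependent reductase. The thioredoxin system works beside it, and activated T cells draw on both while they grow and produce reactive oxygen species.

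With ALX-5407, transcripts of 1 of the 2 enzymes that make cysteine and of both reductases were higher, while those of 1 peroxidase and the enzyme of the final synthesis step were lower. Cth, which releases cysteine from cystathionine, rose 2.72-fold, Chac1, which breaks glutathione down, 1.95-fold, and Txnrd1, a thioredoxin reductase, 1.66-fold. Gsr and Gclm rose by 25.6% and 24.9%. Gclc was higher by 18.2%, but its groups overlapped and its call was lost under several settings, with adjusted p from 0.00947 to 0.201 over 18 alternatives in edgeR and the other tools. Gpx1 went to 0.585 times its untreated level and Gss to 0.793 times, whereas Gpx4 and Cbs did not pass the test.

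Of the 10 genes, 8 had an adjusted p under 0.05 in edgeR's quasi-likelihood F test (Benjamini-Hochberg adjustment), which is here termed called. Among all genes tested, 7605 were called (47.7%). The called genes were 6 higher, beside 24.5% of all genes, and 2 lower, beside 23.2%. The share of higher genes among the 10 was thus above the background, and the share of lower genes was near it. These shares only describe the 10 genes, which were chosen with earlier results of these data known. Only Cth also had an absolute log2 fold change over 1 (a DEG), 1 of 10 beside 10% of all genes in either direction and 3.36% in the higher direction. In this fit the share of DEGs in either direction was thus that of the background. Chac1, at 0.96, passed 1 under some alternatives and was then a DEG too. It reached 1.02 with 1 replicate left out and 1.1 over all alternatives. In 8 of the 10 genes the CPM of the groups did not overlap, beside 55.5% of all genes. The exceptions were Gclc and Gpx4. The median log2 fold change of the 10 was 0.33, beside 0.01 over all genes tested, with 7 genes above 0 and 3 below.

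The count of higher genes was 4 without Th1 replicate 2, when Gclc and Gclm were not called, and the count of lower genes was 1 without ALX-5407 replicate 2, when Gss was not called.

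**Figure D1:**
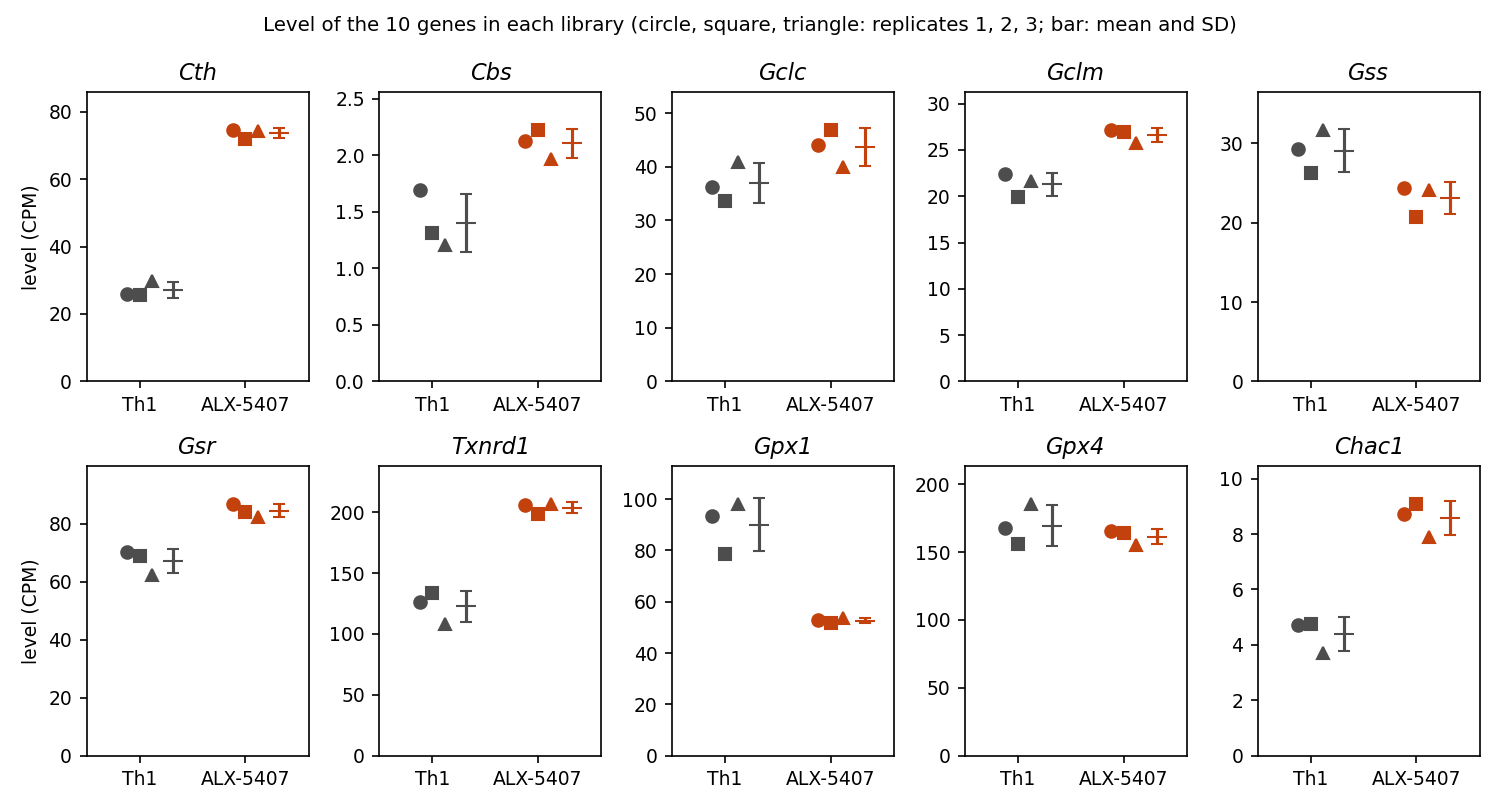
Level of each of the 10 genes in CPM, 1 panel a gene with its own axis from 0; circles, squares and triangles are replicates 1, 2 and 3 of the Th1 and ALX-5407 cultures and bars are group means with SD. The groups lie apart for 8 genes, such as Cth with 25.7 to 29.7 CPM against 72.0 to 74.6 CPM, and overlap for Gclc and Gpx4.

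The panels of the levels in each culture show the spread of the replicates, which differed between genes and groups. The treated cultures of Gpx1, for example, spanned 51.8 to 53.5 CPM, but the untreated ones 78.6 to 98.1 CPM. Those of Cth spanned 72.0 to 74.6 CPM with ALX-5407 and 25.7 to 29.7 CPM without. The fold changes are shown with their intervals in the plot of the 10 genes in order of their roles.

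**Figure D2:**
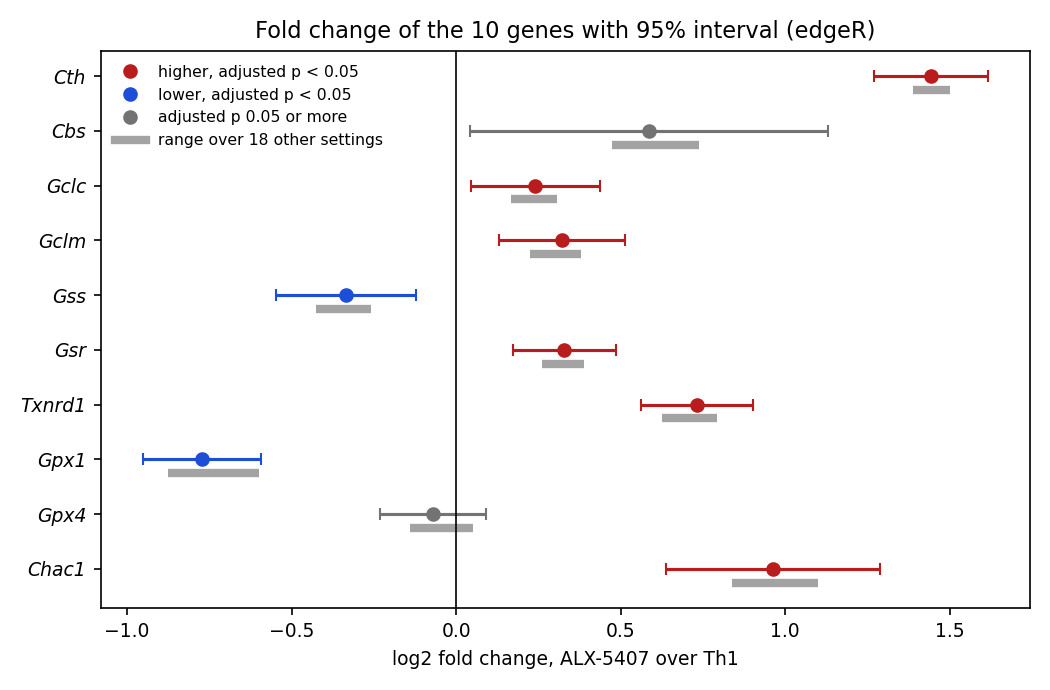
Log2 fold change of ALX-5407 over Th1 cultures for the 10 genes from edgeR; points with thin bars are estimates with 95% intervals, and thick grey bars are the range over 18 other settings. Cth lies farthest from 0 at 1.44, and Gpx4, at -0.07, is the only gene whose range crosses 0.

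The transsulfuration pathway makes cysteine from homocysteine in 2 enzymes, Cbs and Cth. Cth (ENSMUSG00000028179, GRCm38 chr3:157894248-157925077, minus strand) has 4 transcripts and 13 exon blocks in GENCODE M21. Its level was 25.9, 25.7 and 29.7 CPM in the Th1 cultures and 74.6, 72.0 and 74.4 CPM in the ALX-5407 cultures. Each treated culture was thus above each untreated one by a margin many times the spread within groups. The means were 27.1 ± 2.25 and 73.7 ± 1.45 CPM (SD, n = 3 per group), and the log2 fold change was 1.44 (standard error, SE, 0.0815, 95% interval 1.27 to 1.61, adjusted p = 1.72e-09 in edgeR). Of all genes tested, 237 (1.49%) had a higher log2 fold change. No other gene of the annotation matched Cth over 100 bases at 95% identity, nor Gclc, Gsr, Txnrd1, Gpx1 or Chac1. Gm43314, a transcribed stretch within its span that shares no exon base with it, was counted 15, 13 and 17 times in the Th1 cultures and 28, 48 and 36 times with ALX-5407, a higher count in every treated culture (log2 fold change 1.12, SE 0.390, adjusted p = 0.0259 in edgeR).

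Cbs, which joins homocysteine and serine to cystathionine, was scarce. It was counted 55, 41 and 37 times in the Th1 cultures and 75, 83 and 69 times in the ALX-5407 cultures, or 1.69, 1.31 and 1.20 CPM against 2.12, 2.22 and 1.97 CPM. The lowest treated culture was above the highest untreated one. The log2 fold change was 0.59 (SE 0.257, 95% interval 0.04 to 1.13), with an adjusted p of 0.0712 in edgeR, so the difference did not pass the test at this depth. Over 18 alternative settings the adjusted p lay between 0.0474 and 0.186. The gene (ENSMUSG00000024039, chr17:31612623-31637199 in the deposited coordinates, minus strand) has 12 transcripts and 21 exon blocks in GENCODE M21. Its merged exons there cover 7485 bases, against 3343 in the deposited length, and the ends of the gene differ as well. The other 9 genes have the same ends in both. In GENCODE M21, Cbs also holds sequence that matches other genes at 95% identity or more, over up to 142 bases in the case of Araf. Whether these stretches lie within the exons that were counted was not analysed here, so their bearing on the low counts of Cbs is uncertain. Of the matching genes, Zfp397, Ankrd40 and Tti2 were called higher in edgeR, at log2 fold changes of 0.97, 0.34 and 0.31, and Araf, Zscan2 and Cfap20 lower, at -0.48, -0.37 and -0.29.

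The genes whose pattern over the 6 libraries was most like that of Cth were Abcg1, Asns and Slfn8. The measure was the root mean square difference of log2 CPM centred on each gene's mean, over 12116 genes of at least 50 counts on average, and it was 0.0383, 0.0613 and 0.0698 for these genes. Their log2 fold changes were 1.40, 1.34 and 1.34.

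Glutamate-cysteine ligase, which joins glutamate and cysteine in the rate-limiting step, has a catalytic subunit, Gclc, and a modifier subunit, Gclm. Gclm (ENSMUSG00000028124, chr3:122245557-122270732, plus strand, 7 transcripts, 8 exon blocks) was at 22.4, 19.9 and 21.6 CPM in the Th1 cultures and at 27.2, 27.0 and 25.7 CPM in the ALX-5407 cultures. All treated cultures were above all untreated ones, with a gap larger than the spread of either group. The log2 fold change was 0.32 (SE 0.0908, 95% interval 0.13 to 0.51, adjusted p = 0.00799 in edgeR). Over 18 alternative settings the adjusted p lay between 0.003 and 0.0531. It was over 0.05 without Th1 replicate 2 and with an offset for gene length.

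Gclc (ENSMUSG00000032350, chr9:77754535-77794485, plus strand, 3 transcripts, 18 exon blocks) was at 36.2, 33.6 and 40.9 CPM in the Th1 cultures and at 44.1, 46.9 and 39.9 CPM in the ALX-5407 cultures. The groups overlapped, since ALX-5407 replicate 3 was below Th1 replicate 3. In log2 terms the difference was 0.24 (SE 0.0922, 95% interval 0.05 to 0.44, adjusted p = 0.0407 in edgeR). This call rested on the processing, as the adjusted p lay between 0.00947 and 0.201 over 18 alternative settings. It was over 0.05 without Th1 replicate 1 or 2 or ALX-5407 replicate 1 or 2, and under several other settings. The ratio of Gclc to Gclm per length was 2.70, 2.82 and 3.16 in the Th1 cultures and 2.71, 2.90 and 2.59 in the ALX-5407 cultures. These ratios overlapped, so that no difference in the balance of the subunit transcripts was detectable.

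Gss, glutathione synthetase, adds glycine to the dipeptide in the final step. The gene (ENSMUSG00000027610, chr2:155563181-155592810, minus strand) has 9 transcripts and 14 exon blocks. Its level was 29.3, 26.2 and 31.7 CPM in the Th1 cultures and 24.4, 20.7 and 24.1 CPM in the ALX-5407 cultures. Every treated culture was below every untreated one. The log2 fold change was -0.33 (SE 0.100, 95% interval -0.55 to -0.12, adjusted p = 0.0115 in edgeR), and 4381 of the genes tested (27.5%) had a lower one. Over 18 alternative settings the adjusted p lay between 0.000267 and 0.0821, and it was over 0.05 without ALX-5407 replicate 2.

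The estimates for Gclc and Gss thus had opposite signs, although each call was lost under some settings and the CPM of Gclc overlapped between the groups. The ratio of Gclc to Gss per length was 1.94, 2.01 and 2.03 in the Th1 cultures and 2.84, 3.55 and 2.60 in the ALX-5407 cultures, without overlap. The highest ratio belonged to ALX-5407 replicate 2, in which Gclc was highest and Gss lowest.

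Exons of other genes cover part of 2 of these 3 genes. Acss2, on the opposite strand, shares 395 exon bases with Gss (6.68% of its exon bases). It was counted 956, 831 and 854 times in the Th1 cultures and 950, 1071 and 1026 times with ALX-5407, a log2 fold change of 0.02 (adjusted p = 0.864 in edgeR). Gssos1 and Gssos2, also opposite Gss, had at most 2 counts in a library. Gm17494, opposite Gclm, shares 296 bases (4.71%) and had at most 43 counts in a library. Within a Gclm exon lies a copy of Ppia, the pseudogene Gm6061, and Ppia itself matches Gclm over 287 bases at 97.9% identity. Ppia was far more abundant, with 26512 to 36684 counts a library and a log2 fold change of -0.12 (adjusted p = 0.380 in edgeR). Other matching genes did differ between the groups. Gm10123, a processed pseudogene identical to Gclm over 244 bases, was counted 8141, 2009 and 4997 times in the Th1 cultures and 1896, 4252 and 2359 times with ALX-5407, so the groups overlapped, with a log2 fold change of -1.02 (adjusted p = 0.0167 in edgeR). The pseudogenes Gm13493, Gm9234 and Gm5160, with matches at 99.2%, 99.2% and 96.3% identity, were also called lower, at -0.66, -1.24 and -1.46. Whether reads were counted by strand, and how reads with several matches were treated, is not given in the sources used here, so the levels of Gss and Gclm carry this uncertainty.

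Promoter stretches of the 10 genes were examined for 2 motifs. The C/EBP-ATF composite motif, TGATGNAA or TTNCATCA on the other strand, is bound by ATF4 with C/EBP proteins in the amino acid response. The core of the antioxidant response element, TGACNNNGC or GCNNNGTCA on the other strand, is bound by NRF2 with small MAF proteins, and the AP-1 motif TGANTCA can lie within it. RefSeq promoters (GRCm38.p6) matched 7 of the 10 genes, with 12 start sites, and promoters of Gclc, Gsr and Cth, 3 of the 6 genes called higher, were not analysed here. In the 250 bases before the start, the composite motif was found in 1 of the 12 stretches, that of Chac1, and in 1134 of 32851 stretches of all genes (3.45%). The antioxidant core was found in 2 of the 12, that of Gclm and 1 of the 3 of Txnrd1, and in 3338 of all (10.2%). Printed are the stretches with a match, on the plus strand, with the matched letters in capitals, all 3 read on the opposite strand. Distances are counted from the RefSeq starts, at 122245557 for Gclm, 82859206 for Txnrd1 and 119351242 for Chac1. The stretches of Txnrd1 and Chac1 are printed to 223 and 237 of the 250 bases searched, since annotated exons begin before the RefSeq start. That of Gclm is chr3:122245307-122245556, with the match beginning 134 bases before the start. That of Txnrd1 is chr10:82858956-82859178, with the match 92 bases before a start within the gene, where the stretch lies in an intron of the longest transcript and overlaps an exon of Gm38560. That of Chac1 is chr2:119350992-119351228, with the match 193 bases before the start. A match describes the letters only and shows neither binding nor a cause.
Gclm: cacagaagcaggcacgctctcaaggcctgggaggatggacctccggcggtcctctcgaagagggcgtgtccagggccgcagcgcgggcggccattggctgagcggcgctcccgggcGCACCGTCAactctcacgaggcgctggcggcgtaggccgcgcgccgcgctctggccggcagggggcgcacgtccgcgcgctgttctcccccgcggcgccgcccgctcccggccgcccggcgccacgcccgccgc
Txnrd1: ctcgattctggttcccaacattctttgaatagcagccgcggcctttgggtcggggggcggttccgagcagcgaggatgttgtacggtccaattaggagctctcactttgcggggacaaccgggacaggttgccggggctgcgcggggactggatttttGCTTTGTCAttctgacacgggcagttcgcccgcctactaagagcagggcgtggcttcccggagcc
Chac1: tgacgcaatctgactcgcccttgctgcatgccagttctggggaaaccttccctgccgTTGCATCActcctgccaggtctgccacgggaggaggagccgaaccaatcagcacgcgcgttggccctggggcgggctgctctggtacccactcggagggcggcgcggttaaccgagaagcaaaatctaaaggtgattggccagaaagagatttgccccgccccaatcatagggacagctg

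Glutathione reductase, Gsr, restores reduced glutathione with NADPH, and Txnrd1, a selenoprotein, does the same for cytosolic thioredoxin. Txnrd1 (ENSMUSG00000020250, chr10:82833951-82897712, plus strand, 8 transcripts, 15 exon blocks) was at 126, 133 and 108 CPM in the Th1 cultures and at 206, 199 and 207 CPM in the ALX-5407 cultures. The lowest treated culture was well above the highest untreated one. The means were 123 ± 13.0 and 204 ± 4.46 CPM (SD, n = 3 per group), with a log2 fold change of 0.73 (SE 0.0801, 95% interval 0.56 to 0.90, adjusted p = 1.72e-06 in edgeR). Of all genes tested, 1384 (8.68%) had a higher log2 fold change. Gm38560, a long noncoding RNA gene that begins beside the Txnrd1 promoter on the opposite strand and shares no exon base with it, was also higher, with 13, 5 and 5 counts in the Th1 cultures and 34, 43 and 37 with ALX-5407. Its log2 fold change was 2.11 (SE 0.459, adjusted p = 0.00122 in edgeR), and it was named after its values were seen.

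Gsr (ENSMUSG00000031584, chr8:33652523-33698163, plus strand, 3 transcripts, 15 exon blocks) was at 70.3, 69.0 and 62.4 CPM in the Th1 cultures and at 86.9, 84.1 and 82.5 CPM in the ALX-5407 cultures. The groups did not overlap, and the gap between them was larger than the spread within either. Gsr had a log2 fold change of 0.33 (SE 0.0738, 95% interval 0.17 to 0.49, adjusted p = 0.00155 in edgeR). Both reductases rose, Txnrd1 by more, and the ratio of Gsr to Txnrd1 per length went from 1.43, 1.33 and 1.48 in the Th1 cultures to 1.09, 1.09 and 1.03 in the ALX-5407 cultures. The ratios did not overlap.

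The selenoprotein peroxidases differed from each other. Gpx1, which reduces hydrogen peroxide with glutathione in the cytosol and mitochondria, is a short gene (ENSMUSG00000063856, chr9:108338903-108340343, plus strand, 4 transcripts, 1441 exon bases). Its level was 93.5, 78.6 and 98.1 CPM in the Th1 cultures and 52.8, 51.8 and 53.5 CPM in the ALX-5407 cultures. The treated cultures lay close together and far below each untreated one. The means were 90.0 ± 10.2 and 52.7 ± 0.834 CPM (SD, n = 3 per group), and the log2 fold change was -0.77 (SE 0.0844, 95% interval -0.95 to -0.59, adjusted p = 1.69e-06 in edgeR). A lower log2 fold change was found in 1850 of the genes tested (11.6%).

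Gpx4, which reduces lipid hydroperoxides in membranes and protects cells from ferroptosis, was at 167, 156 and 185 CPM in the Th1 cultures and at 165, 164 and 155 CPM in the ALX-5407 cultures. The groups overlapped. Its log2 fold change of -0.07 had a 95% interval from -0.23 to 0.09 (adjusted p = 0.475 in edgeR), and it was above 0 with an offset for gene length, with a range from -0.14 to 0.05 and adjusted p from 0.184 to 0.904 over 18 alternative settings. The gene (ENSMUSG00000075706, chr10:80047166-80056439, plus strand) has 7 transcripts and 9 exon blocks. Its pseudogene Gpx4-ps2 matches it over 762 bases at 99.7% identity and was counted 842, 668 and 896 times in the Th1 cultures and 938, 942 and 858 times with ALX-5407. Gpx4 itself had 4884 to 6111 counts a library, so the division of reads between the copies is uncertain. The pseudogene's log2 fold change was 0.00 (adjusted p = 0.999 in edgeR). The ratio of Gpx4 to Gpx1 per length was 1.58 ± 0.0803 in the Th1 cultures and 2.56 ± 0.122 in the ALX-5407 cultures (SD, n = 3 per group), without overlap.

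Chac1 splits glutathione in the cytosol and is induced in the amino acid response. The gene (ENSMUSG00000027313, chr2:119351229-119354381, plus strand) has 1 transcript with 3 exons and was counted 154, 149 and 114 times in the Th1 cultures and 308, 339 and 277 times in the ALX-5407 cultures. Its level was 4.73, 4.75 and 3.70 CPM against 8.72, 9.09 and 7.90 CPM, so all treated cultures were above all untreated ones. The log2 fold change was 0.96 (SE 0.153, 95% interval 0.64 to 1.29, adjusted p = 7.74e-05 in edgeR), just short of the DEG threshold of 1. Over 18 alternative settings it ranged from 0.84 to 1.10. Of all genes tested, 705 (4.42%) had a higher one. Its promoter stretch is the one printed above with the C/EBP-ATF composite motif.

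Between genes, levels can be compared only per length. For all but Cbs, the length used is that of the merged exons of all transcripts in GENCODE M21. Which transcripts the cells express was not analysed here, so the order is approximate. In the Th1 cultures Gpx4 was highest at 98.3 ± 8.65 CPM per kilobase (SD, n = 3 here and in the following values), followed by Gpx1 at 62.5 ± 7.09, Gsr at 24.4 ± 1.54 and Txnrd1 at 17.3 ± 1.83. Gclc at 9.80 ± 0.978 and Cth at 9.71 ± 0.805 came next, and their cultures overlapped. Below them were Gss at 4.92 ± 0.463, Gclm at 3.39 ± 0.199, Chac1 at 2.68 ± 0.366 and Cbs at 0.419 ± 0.0766. Apart from Gclc and Cth, no neighbours in this order overlapped. In Th1 cells the peroxidase transcripts were thus most abundant, and those of Cbs scarcest.

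With ALX-5407 the order per length changed below the first 4 genes. Gpx4 remained highest at 93.6 ± 3.27 CPM per kilobase, and Gpx1 at 36.6 ± 0.578 came nearer to Gsr at 30.7 ± 0.812 and Txnrd1 at 28.8 ± 0.629. Cth, at 26.4 ± 0.519, was now clearly above Gclc at 11.6 ± 0.938. Chac1 at 5.24 ± 0.371 was above Gclm at 4.23 ± 0.125 and Gss at 3.90 ± 0.342, and Cbs was again lowest at 0.630 ± 0.0387. Gclm and Gss were the only neighbours that overlapped. The plot of levels per length shows both orders.

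**Figure D3:**
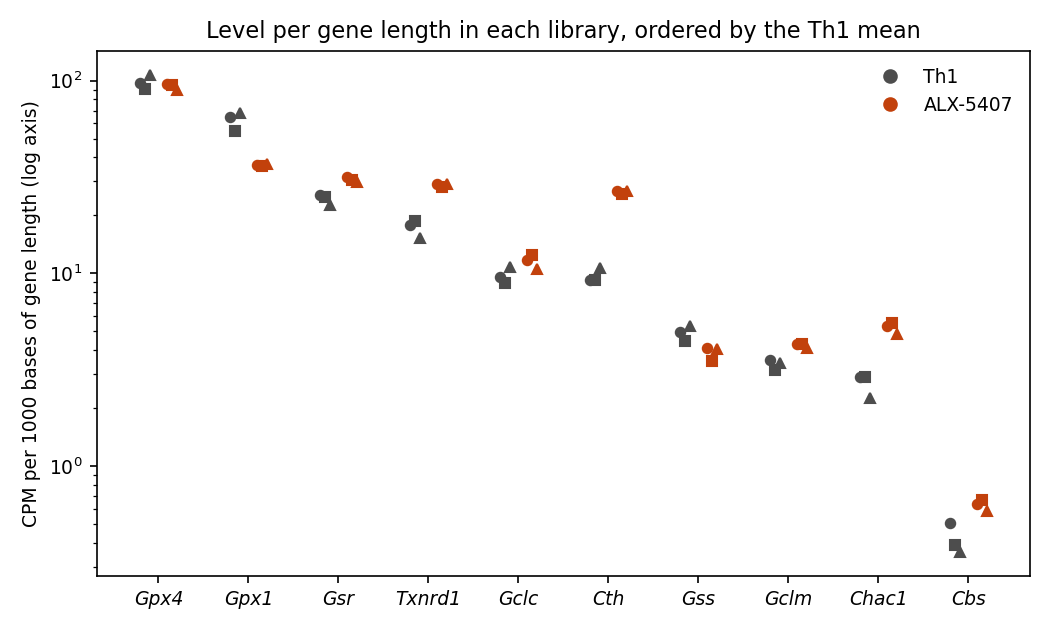
Level per length (CPM per kilobase, log axis) of the 10 genes in the 6 cultures; circles, squares and triangles are replicates 1, 2 and 3 and colours are the groups. In Th1 cultures Cth lay level with Gclc at 9.71 and 9.80, and with ALX-5407 it was at 26.4 beside 11.6.

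Gene length moved with the fold change over all genes, which bears on the short genes Gpx1, Gpx4 and Chac1 and the long genes Txnrd1 and Gclm. With the genes in 4 classes of length, the shortest, 12 to 1958 bases, had a median log2 fold change of -0.23, with 9.01% of genes higher and 28.1% lower. In the longest class, 5956 bases and over, the median was 0.11, with 36.1% higher and 19.9% lower. Gpx1, Gpx4 and Chac1 belong to the shortest class, where Gpx1 lay below that class's median and Gpx4 and Chac1 above it. Txnrd1 and Gclm, at 7086 and 6291 bases, belong to the longest class and lay above its median. With an offset for gene length, the Gpx1 log2 fold change was -0.61 and the Chac1 log2 fold change 1.09, both still called, and the Gpx4 log2 fold change was 0.049. The Gclc log2 fold change was then 0.18 (adjusted p = 0.118, range 0.00947 to 0.201 over alternatives) and the Gclm log2 fold change 0.22 (adjusted p = 0.0518, range 0.003 to 0.0531), neither called in edgeR. The plot of fold change against gene length shows where the 10 genes lie.

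**Figure D4:**
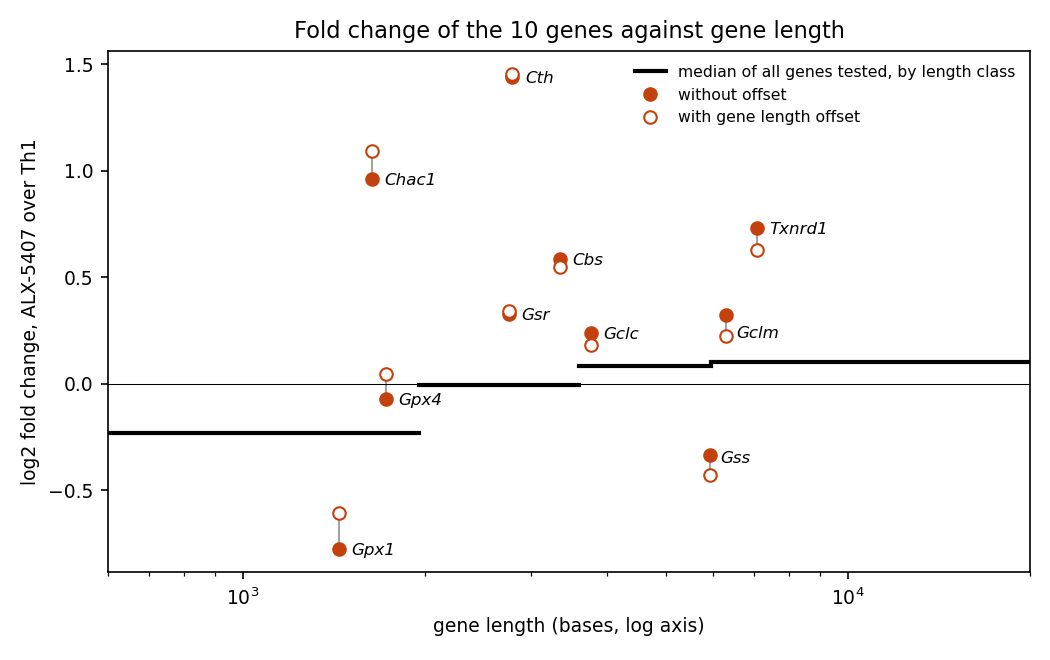
Log2 fold change of ALX-5407 over Th1 cultures against gene length in bases (log axis); filled points are the 10 genes without and open points with an offset for gene length, and black lines are the medians of all genes tested in each of 4 length classes. The class medians go from -0.23 to 0.11, and Gpx4 lies on either side of 0 with and without the offset.

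The wider pathway was described with 11 lists compiled from general knowledge, but with earlier results of these data known. They hold 256 genes outside the 10, 218 of them tested. Of these, 88 were higher and 43 lower, so 131 were called (60.1%, beside 47.7% of all genes), and the median log2 fold change was 0.13. By direction, the background was 24.5% higher and 23.2% lower. The share called was 47.8% in the glutathione S-transferase list, that of the background, and between 52% and 55.6% in the lists of the NRF2 pathway, glutathione turnover, thioredoxins, selenocysteine, cysteine supply and NADPH supply. It was 64.7% for ferroptosis, 73.3% for peroxidases, 80% for glycine supply and 85% for ATF4 and its targets. Differences between a list and the background were not tested. The shares describe the lists only, as the lists were not chosen independently of these data. Each adjusted p in the account of the lists is from the same edgeR test over all genes.

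**Figure D5:**
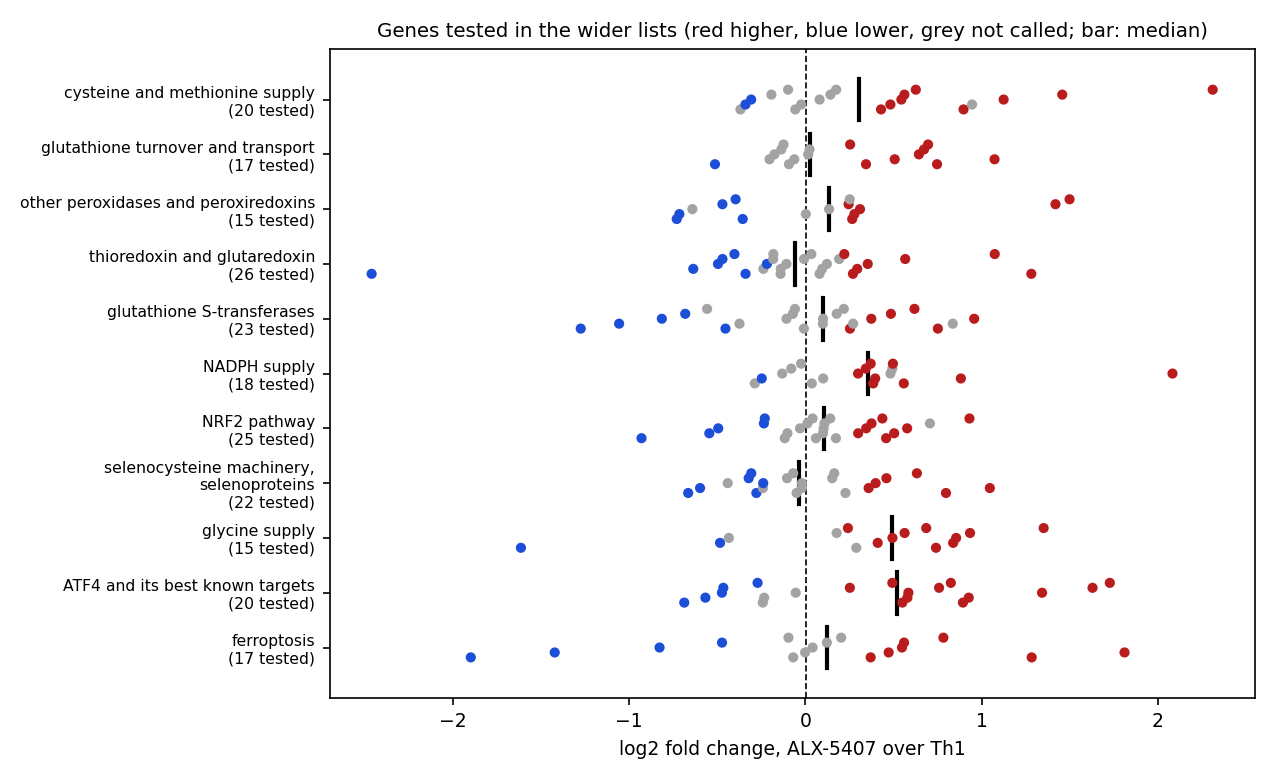
Log2 fold change of ALX-5407 over Th1 cultures for the tested genes of the 11 wider lists; points are genes, red called higher, blue called lower and grey not called, and bars are list medians. The medians run from -0.06 for thioredoxin and glutaredoxin genes to 0.52 for ATF4 and its targets.

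Of 20 tested genes of cysteine and methionine supply, 9 were higher, 2 lower and 9 not called, with a median log2 fold change of 0.30. Slc7a11, the cystine importer, was at 2.09, 1.82 and 1.95 CPM in the Th1 cultures and at 9.57, 9.998 and 9.55 CPM with ALX-5407, so every treated culture was above every untreated one. Its log2 fold change was 2.31 (SE 0.158, adjusted p = 1.20e-08). Slc1a4, a carrier of neutral amino acids, rose by 1.13 on the log2 scale and Ado, which oxidizes cysteamine, by 0.90. The lower genes were Got1 and Mat2b at -0.34 and -0.31, and 3 genes were lower without Th1 replicate 2 or 3.

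In glycine supply, 10 of 15 tested genes were higher and 2 lower, with a median of 0.49. Phgdh, which opens the path from glycolysis to serine, went from 191 ± 12.2 to 366 ± 12.2 CPM (SD, n = 3 per group), with a log2 fold change of 0.93. Psph and Shmt2, which complete serine and turn it into glycine, were higher by 0.86 and 0.84. The lower genes were Gldc, which breaks glycine down in mitochondria (log2 fold change -1.61), and Slc25a38, a mitochondrial glycine carrier (-0.48), and 3 genes were lower without Th1 replicate 3. Their adjusted p-values were 0.00018 and 0.00293 in edgeR.

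NADPH supply, which feeds both reductases, had 9 of 18 tested genes higher and 1 lower, with a median of 0.36. Aldh1l2, a mitochondrial folate enzyme that makes NADPH, was at 15.5, 20.5 and 12.7 CPM in the Th1 cultures and at 63.2, 72.8 and 70.5 CPM with ALX-5407. The treated cultures were all far above the untreated ones, with a log2 fold change of 2.08 (adjusted p = 4.48e-09). H6pd and Rpia rose by 0.88 and 0.50. The lower gene was Pgd, of the pentose phosphate pathway, at -0.25, which was not called without ALX-5407 replicate 2, so that 0 genes of the list were then lower.

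Of the 17 tested genes of glutathione turnover and transport, 8 were higher and 1 lower, with a median of 0.02. Cndp2, a cytosolic dipeptidase that splits cysteinylglycine, went from 235 ± 8.64 to 381 ± 19.3 CPM (SD, n = 3 per group), with a log2 fold change of 0.70. Slc25a10 and Slc25a40, mitochondrial carriers, rose by 1.07 and 0.75, and Abcg2, an export pump, was lower at -0.51. The other 8 were not called.

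Among 15 other peroxidases, peroxiredoxins and related enzymes, 6 were higher and 5 lower, and the median was 0.13. Srxn1, which repairs overoxidized peroxiredoxins, went from 4.34 ± 0.716 to 11.6 ± 1.42 CPM (SD, n = 3 per group), without overlap of the cultures. Its log2 fold change was 1.42 (adjusted p = 1.90e-06), and the level of Sesn2, a stress-induced gene, was 2.83-fold higher. Cat, catalase, was higher by 0.31. In the other direction, Prdx6, Sod1 and Prdx5, which remove peroxides or superoxide, had log2 fold changes of -0.73, -0.71 and -0.40. The count of higher genes was 4 without Th1 replicate 1 or 2 or ALX-5407 replicate 1.

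Thioredoxin and glutaredoxin genes were split, with 7 of 26 higher and 7 lower and a median of -0.06. With upper quartile factors 6 were higher and 10 lower, on library totals alone 7 and 5, and with protein-coding genes alone the lower genes numbered 11. Glrx, cytosolic glutaredoxin, went from 40.5 ± 4.23 to 98.6 ± 5.14 CPM (SD, n = 3 per group), with a log2 fold change of 1.28, and Arrdc4 and Glrx5 rose by 1.07 and 0.57. Txn1, the thioredoxin that Txnrd1 reduces, was at 341, 323 and 282 CPM in the Th1 cultures and at 238, 235 and 199 CPM with ALX-5407. Every treated culture was below every untreated one, opposite to Txnrd1, with a log2 fold change of -0.50 (adjusted p = 0.0002). With an offset for gene length the Txn1 log2 fold change was -0.27, still called. Msrb3, a methionine sulfoxide reductase, had -2.46 and Txndc17 -0.64.

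The glutathione S-transferase list holds enzymes that add glutathione to other molecules and some relatives and glyoxalase genes, such as Eef1g, Ptges2, Glo1 and Hagh. Of its 23 tested genes, 6 were higher and 5 lower, with a median of 0.10, and Eef1g is among the higher and Hagh among the lower. The share called, 47.8%, was that of the background, 47.7%. Gstt1 and Gstt2 were higher by 0.96 and 0.75, and Mgst2 and Mgst3, membrane-bound members of the list, had log2 fold changes of -1.27 and -1.06. Gstp1 was higher (0.62) and Gstp3 lower (-0.68), but how alike the Gstp genes are in sequence was not analysed here, so the division of reads between them is uncertain. Over 17 alternative settings Gstp1 ranged from 0.44 to 0.90 and Gstp3 from -0.73 to -0.39, both called throughout.

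The selenocysteine list held 22 tested genes, 6 higher and 6 lower, with a median of -0.03. Sephs2 and Sephs1 were higher by 1.05 and 0.80, the first of them the enzyme that makes selenophosphate for selenocysteine, and Selenot by 0.46. Selenbp1, Selenos and Selenoh had log2 fold changes of -0.66, -0.60 and -0.31. With an offset for gene length, the Selenoh log2 fold change was -0.09 and not called (adjusted p = 0.391, range 0.00208 to 0.391 over alternatives in edgeR). The selenoproteins among the 10 genes, Txnrd1, Gpx4 and Gpx1, spread likewise, at 0.73, -0.07 and -0.77.

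In the NRF2 pathway, 8 of 25 tested genes were higher and 5 lower, with a median of 0.10. The share called, 52%, was near the 47.7% of all genes. Bach1, a repressor that competes with NRF2, went from 20.2 ± 0.82 to 38.5 ± 2.84 CPM (SD, n = 3 per group), with a log2 fold change of 0.93, and Dpp3 and Nfe2l1 rose by 0.58 and 0.50. Ugdh, Maff and Fth1 had log2 fold changes of -0.93, -0.54 and -0.49. With an offset for gene length the Fth1 log2 fold change was -0.23 and not called (adjusted p = 0.0520, which was its highest over the alternatives in edgeR, the lowest being 2.65e-09). The count of lower genes was 3 without Th1 replicate 1 or ALX-5407 replicate 1 or 3. The gene of NRF2 itself, Nfe2l2, named after its values were seen, was at -0.10 on that scale (adjusted p = 0.369).

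ATF4 and its best known targets, which include genes of the amino acid response, had 12 of 20 tested genes higher and 5 lower, with a median of 0.52. Slc7a5, the leucine carrier, went from 270 ± 28.2 to 895 ± 18.3 CPM (SD, n = 3 per group), with a log2 fold change of 1.73, and Trib3 and Asns rose by 1.63 and 1.34. Atf4 was at 421, 446 and 378 CPM in the Th1 cultures and at 262, 263 and 249 CPM with ALX-5407. Its transcript was thus lower in every treated culture (log2 fold change -0.69, adjusted p = 1.81e-06), while most listed targets, Cth and Chac1 were higher. Ddit3 and Ppp1r15a were lower too, both at -0.47, and the CPM of Ppp1r15a overlapped between the groups.

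Of 17 tested ferroptosis genes other than Gpx4, 7 were higher and 4 lower, with a median of 0.12. Mboat1, Lpcat3 and Acsl4, which act on the fatty acids of membrane lipids, rose by 1.28, 0.78 and 0.47. Hspb1, Alox15 and Sat1 had log2 fold changes of -1.90, -1.42 and -0.83, the first 2 from means of 3.24 and 3.17 CPM in Th1 cultures. Gpx4 lay between these groups without a call.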

How the data were processed

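The authors deposited raw counts of reads per gene and library, without normalization, with gene names, GRCm38 coordinates and gene lengths. The submitters' processing notes name fastp, HISAT2 2.0.5, featureCounts 1.5.0-p3 and the build mm10, without stating settings. The count columns were matched to the labelled groups by their names. The 10 genes were found by name, each once. The fit used edgeR 4.0.16 in R 4.3.3 with filterByExpr (minimum count 10, minimum total 15), TMM factors (0.965 to 1.03), the quasi-likelihood F test and Benjamini-Hochberg adjustment over 15938 genes. Of the 54532 genes, 26068 had 0 counts in all libraries. Standard errors are the fold change over the square root of F. Replicates differed beyond counting noise (chi-square per degree of freedom 5.67 to 22.9, biological coefficient of variation 0.0978), and each library was taken as a replicate, as labelled.

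Alternatives were other scalings and filters, DESeq2 1.42.0, limma-voom (3.58.1), a replicate block, a length offset (loess span 0.3), protein-coding genes alone, added pseudogene counts, a DEG threshold, and each replicate left out. The 10 genes and the lists were chosen with earlier results of these data known. From each wider list, up to 3 called genes a direction with the smallest p were named. The value of 1 marker gene is not reported here. Annotation came from GENCODE M21, copies from BLAST 2.17.0 and promoters from RefSeq. Figures used Python 3.11.15 and matplotlib 3.10.9.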

Additional observations from a re-analysis of the deposited data

How the results depend on the processing

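Of 180 fold changes of the 10 genes under alternative settings, 163 kept their direction and side of the threshold in edgeR or the tool tried, and of 1020 of the named genes of the wider lists 1016 did. Cth, Chac1, Txnrd1, Gsr and Gpx1 did so throughout. The Gclc log2 fold change was not called with RLE factors (0.23, adjusted p = 0.0508), upper quartile factors (0.19, 0.113), a mean count of 50 or more (0.21, 0.0637), DESeq2 (0.23, 0.0547), a length offset (0.18, 0.118) and protein-coding genes alone (0.19, 0.0853), and it was 0.17 to 0.31 with 1 replicate left out, with adjusted p from 0.00947 to 0.201 over all settings. The Gclm log2 fold change was 0.22 with a length offset (adjusted p = 0.0518, range 0.003 to 0.0531) and 0.26 to 0.35 with 1 replicate left out. The Gss log2 fold change was -0.41 to -0.26 with 1 replicate left out. The Gpx4 log2 fold change turned to 0.049 with a length offset (adjusted p = 0.625, range 0.184 to 0.904). The Cbs log2 fold change was called on library totals alone (0.65, adjusted p = 0.0474, range 0.0474 to 0.186). The cause was not tested.

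DEGs numbered 876 at a mean count of 50 or more and 995 among protein-coding genes, where fewer genes were tested. With the DEG threshold as the only change, 1 of the 10 genes was called. With a length offset and no fold threshold, 4 were called higher. Leaving out 1 replicate gave 4 to 6 called higher and 1 to 2 lower. In the lists, lower genes of cysteine and methionine supply numbered 3 with upper quartile factors and with protein-coding genes alone (2 to 3 with 1 replicate left out), and higher peroxidase genes 4 under the same settings (4 to 6). Lower thioredoxin and glutaredoxin genes numbered 11 with protein-coding genes alone, lower NRF2 pathway genes 3 on library totals (3 to 6 with 1 replicate left out), and lower selenocysteine genes 4 on library totals or with a length offset. Lower NADPH supply genes numbered 0 to 1 and lower glycine supply genes 2 to 3 with 1 replicate left out.

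Among all genes tested, 3910 were higher and 3695 lower in the main fit. On library totals alone 4484 were higher and 3246 lower, and with upper quartile factors 3413 and 4158. With a replicate block, 4071 genes were higher and 3833 lower. Combined with a length offset, the paired fit gave a Gclc log2 fold change of 0.18 (adjusted p = 0.0918, range 0.00947 to 0.201), a Gpx4 log2 fold change of 0.052 (adjusted p = 0.571, range 0.184 to 0.904) and 2 lower NADPH supply genes. Deviations of same-numbered libraries correlated across genes at 0.0474, 0.0455 and 0.175. Pairs with different numbers lay between -0.154 and 0.129, most of them below 0, with the highest for Th1 replicate 1 and ALX-5407 replicate 2. As far as the labels state, same-numbered libraries share only their number. Genes with few counts, such as Cbs, have wide intervals at this depth.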
